A study of Mus musculus with 9 samples.

Results

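The transforming growth factor beta (TGF-beta) ligand genes Tgfb1, Tgfb2 and Tgfb3, the receptor genes Tgfbr1 and Tgfbr2 and the signal transducer gene Smad3 were followed in nuclei of injured and control mouse kidneys. These 6 genes were chosen by name, with earlier results of these data known, so counts of members called are a description. They were present in both deposited tables of counts, which shared 16939 of 19858 listed genes. Ischemia-reperfusion injury (IRI) was made by clamping the vessels of both kidneys for 18 min in male mice of 11 to 19 weeks. The libraries, 1 per mouse, came from 3 mice at day 28 after IRI, 2 mice at day 7 after IRI and 4 controls.

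All IRI mice had the genotype Krt20T2A-CE; INTACTnuGFP/+ and received tamoxifen at 0.05 mg/g, so that GFP marked nuclei of cells that had used Krt20, a keratin gene of injured tubule. The controls had the genotype Six2TGC; Rosa26rtTA; pTRE-H2BeGFP, in which doxycycline in the food (625 mg/kg) put GFP on histones of nephron nuclei; 3 were sham-operated and control 1 had no surgery. Nuclei positive for GFP were sorted from each kidney and counted by unique molecular identifiers (UMIs) at the 3' ends of polyadenylated RNA. Injury, genotype, labelling drug and the cells that were sorted therefore changed together between IRI and control and cannot be told apart. Day 28 and day 7 mice shared genotype, drug and sort.

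The tables held 14622 nuclei with 43528374 UMIs from IRI mice and 13116 nuclei with 23467844 UMIs from controls. Depth in proximal tubule-like (PT-like) nuclei ranged from a median of 667 UMIs in control 4 to 4456 in day 28 mouse 3. The barcode set of the library kit was read from the first bases of some cell barcodes. These came from 3 nuclei in day 28 mouse 3 and 10 to 22 nuclei in each other library. They matched the v2 set in all controls and in day 28 mouse 1, and the v3 set in the other IRI mice. In each library 3 to 66 barcodes also occurred in another library. Nuclear classes were rebuilt by clustering without the 6 genes, giving 22596 PT-like and 1351 thick ascending limb-like (TAL-like) nuclei besides smaller classes. The PT markers summed to 5151 to 8786 counts per 1000000 UMIs (CPM) in PT-like nuclei at day 28, 5525 to 5537 at day 7 and 16870 to 23215 in controls. Injured PT markers summed to 5385 to 5873 CPM at day 28, 6480 to 6983 at day 7 and 512 to 763 in controls. The GFP sorts had also passed 395 stroma-like, 226 leukocyte-like and 227 endothelium-like nuclei from IRI mice, against 88 stroma-like, 22 leukocyte-like and 12 endothelium-like nuclei from controls. Malat1, a long noncoding RNA kept in the nucleus, made up 16.0% to 17.7% of all UMIs at day 28, 6.75% and 10.3% at day 7 and 19.8% to 24.0% in controls, and its part in the changes below was not tested.

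TGF-beta ligands are secreted in a latent form bound to the matrix and are released by integrins and proteases. Free ligand binds the receptor encoded by Tgfbr2, which recruits and phosphorylates the kinase encoded by Tgfbr1. That kinase phosphorylates the proteins of Smad2 and Smad3, which join Smad4 and enter the nucleus to regulate genes of matrix, growth arrest and feedback. In the kidney the pathway is best known for its part in fibrosis after tubular injury. In the mouse genome build GRCm38 with the GENCODE M21 annotation, Tgfb1 spans chr7:25687002-25705077 on the plus strand and Tgfb2 chr1:186622792-186705989 on the minus strand. Tgfb3 lies at chr12:86056745-86079041 (minus), Tgfbr1 at chr4:47353222-47414931 (plus), Tgfbr2 at chr9:116084293-116175360 (minus) and Smad3 at chr9:63646767-63757994 (minus). All 6 are protein-coding genes, and counts are for the whole gene, since the tables give no exon or transcript.

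The promoters of the ligand genes Tgfb2 and Tgfb1 are shown because these genes rose together against control but stood in opposite order between the days. Each stretch runs 5' to 3' on the gene's strand, from 250 bases before to 50 bases after the start (RefSeq, GRCm38.p6). Capitals mark the TATA box TATAAA, the E-box CACGTG and the GC box GGGCGG or its complement CCGCCC. The Tgfb2 stretch is chr1:186705940-186706239 on the minus strand and the Tgfb1 stretch chr7:25686752-25687051 on the plus strand.
Tgfb2: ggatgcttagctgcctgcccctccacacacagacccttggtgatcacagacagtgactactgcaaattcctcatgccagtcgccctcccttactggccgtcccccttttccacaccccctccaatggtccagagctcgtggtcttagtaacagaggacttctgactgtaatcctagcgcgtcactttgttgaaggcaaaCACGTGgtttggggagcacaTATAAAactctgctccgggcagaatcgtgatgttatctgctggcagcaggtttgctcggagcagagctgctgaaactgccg
Tgfb1: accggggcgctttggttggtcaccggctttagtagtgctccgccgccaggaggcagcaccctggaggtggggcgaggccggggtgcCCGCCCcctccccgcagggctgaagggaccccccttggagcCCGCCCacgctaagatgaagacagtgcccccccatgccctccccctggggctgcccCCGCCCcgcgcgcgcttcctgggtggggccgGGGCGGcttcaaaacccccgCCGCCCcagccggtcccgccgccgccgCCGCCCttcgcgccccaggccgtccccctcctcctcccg
The Tgfb2 stretch held a TATA box at position -31 and an E-box at -51, counting back from the start, and no GC box, with 54.3% G or C. The Tgfb1 stretch held 6 GC boxes and neither of the other motifs, with 77.0% G or C. Of 32851 mouse promoters of this length, searched on both strands, 13.6% held the TATA box, 7.15% the E-box and 35.7% the GC box. The CRE TGACGTCA (1.79% of promoters), the AP-1 site TGANTCA (7.81%), the palindrome GTCTAGAC (0.213%) and the Runx motif TGTGGT (16.8%) had no match in the stretches of Tgfb1, Tgfb2, Tgfbr1, Tgfbr2 or Smad3. The short Smad box CAGACA (21.04%) occurred once in the Tgfb2 stretch, at -204, and once in the downstream of 2 Tgfbr1 stretches. None of these matches was tested for binding here.

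In PT-like nuclei Tgfb2 was the ligand gene with the largest log2 change at day 28, and Tgfb1, whose product is the best-studied ligand of fibrosis, was higher at both times. Tgfb2 stood at 65.3, 77.8 and 102 CPM in the day 28 mice, at 24.0 and 20.7 CPM in the day 7 mice, and at 1.02, 1.16, 0.583 and 0 CPM in controls 1 to 4. Each IRI mouse lay above every control, and each day 28 mouse lay above both day 7 mice. The share of all genes that separate mice in this way was not counted, for Tgfb2 or for the genes below. The control values rest on 15 UMIs over 4 libraries, and 0 UMIs in control 4 allow up to 1.92 CPM (3 counts of its total). The exact 95% counting interval of the highest control, control 2, ran from 0.376 to 2.70 CPM.

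Tgfb1 stood at 10.6, 12.4 and 21.05 CPM in the day 28 mice, at 26.1 and 31.4 CPM in the day 7 mice, and at 1.02, 1.39, 0.467 and 1.92 CPM in controls 1 to 4. IRI and control libraries did not overlap. Both day 7 mice lay above all day 28 mice, the opposite order to Tgfb2. The controls held 18 Tgfb1 UMIs in all.

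Tgfb3, the third ligand gene, was near the limit of detection everywhere. It had 2.23, 0.980 and 1.43 CPM in the day 28 mice, 0.414 and 0 CPM in the day 7 mice and 0.408, 0, 0.583 and 0 CPM in the controls. That is 21 UMIs at day 28, 5 at day 7 and 7 in controls. It did not pass the filter on low counts and was not tested. The gene Ttll5 on the opposite strand overlaps Tgfb3 over 5149 bases, exons included, and had 1268 UMIs at day 28, 1844 at day 7 and 945 in controls; the sources used here do not state whether counting used strand. A predicted antisense gene, Gm29491, likewise overlaps an exon of Tgfb2, with 15 UMIs at day 28 beside 1412 of Tgfb2; it is listed in the IRI table only.

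**Figure D1:**
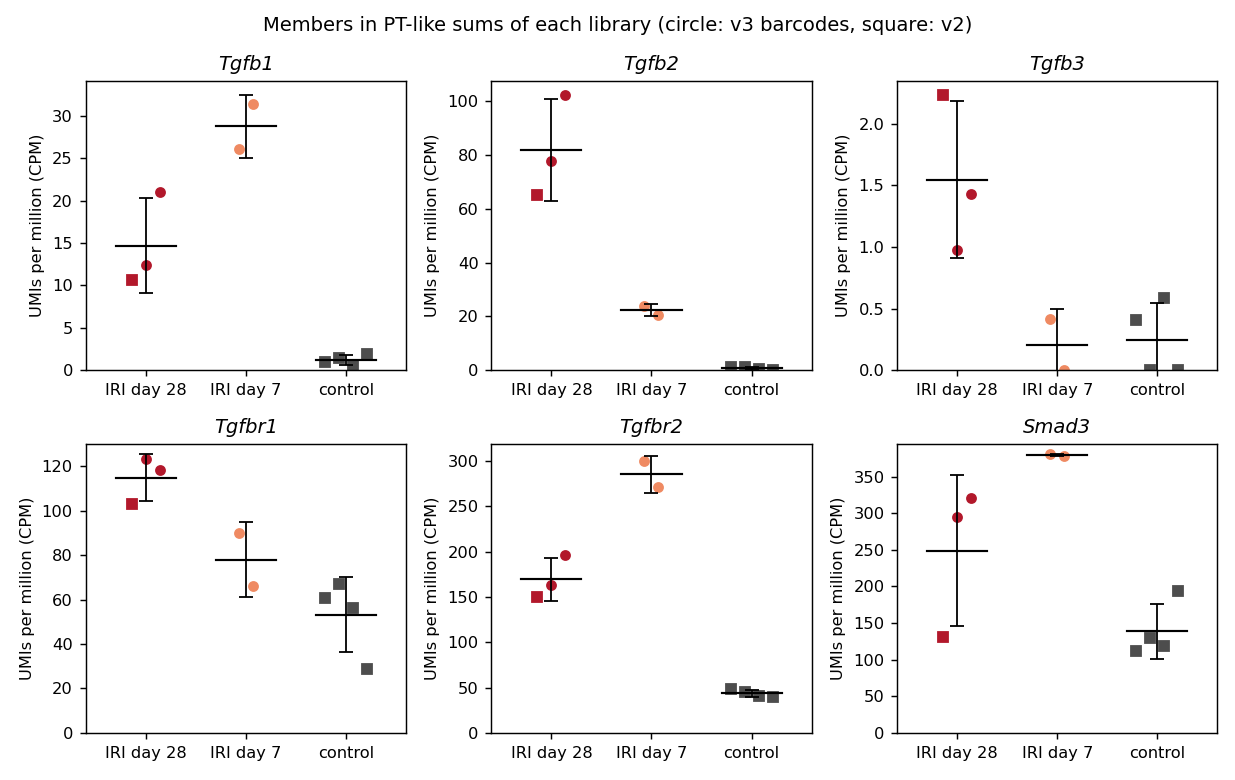
CPM of each member in the summed PT-like nuclei of every library, with day 28, day 7 and control mice from left to right; horizontal lines are means and bars are SDs (n = 3, 2 and 4), circles v3 and squares v2 barcodes. Tgfb2 is highest at day 28 and Tgfb1 and Tgfbr2 at day 7. All IRI mice lie above all controls for these 3 genes, and the share of all genes that separate in this way was not counted. The day 28 library with v2 barcodes lies within the control range for Smad3.

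The receptor gene Tgfbr2 had 149.5, 163 and 196 CPM in the day 28 mice, 299.98 and 271 CPM in the day 7 mice and 48.7, 45.2, 41.2 and 39.1 CPM in the controls. The 3 groups did not overlap, and day 7 was highest. Tgfbr1 had 103, 123 and 118 CPM at day 28, 89.9 and 66.2 CPM at day 7 and 60.8, 67.0, 56.1 and 28.8 CPM in the controls. All day 28 mice lay above the others, while day 7 mouse 2 lay within the control range. Control 4, the shallowest library, had the lowest CPM of both receptor genes. Among its 306 PT-like nuclei thinned to 1000 UMIs, 5.88% held a Tgfbr1 UMI and 5.56% a Tgfbr2 UMI. The other controls had 5.33% to 6.09% for Tgfbr1 and 3.81% to 4.01% for Tgfbr2.

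Smad3, whose product carries the signal to the nucleus, had 131, 295 and 321 CPM in the day 28 mice, 380.5 and 378 CPM in the day 7 mice and 112, 129.99, 119 and 194 CPM in the controls. Both day 7 mice lay above all other libraries. Day 28 mouse 1 lay within the control range, and the other day 28 mice lay above it. That mouse was the one IRI library with v2 barcodes and had the highest serum creatinine 48 h after IRI, 0.488 mg/dL against 0.133 to 0.255 mg/dL in the other IRI mice. The part of either in its Smad3 level was not tested.

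At day 28 against control, 4 of the 5 members tested in PT-like sums rose and none fell, where 24.1% of 14211 tested genes rose and 21.1% fell. The test was edgeR's quasi-likelihood F test with Benjamini-Hochberg adjustment over all tested genes, as for every adjusted p given. Tgfb2 rose by 6.39 on the log2 scale (SE 0.36, adjusted p = 2e-07). Tgfb1 rose by 3.60 (SE 0.40, adjusted p = 2.68e-05), Tgfbr2 by 1.69 (SE 0.19, adjusted p = 3.17e-05) and Tgfbr1 by 0.82 (SE 0.28, adjusted p = 0.0325). Smad3 changed by 0.63 (SE 0.29, adjusted p = 0.0931). Day 28 mouse 1 had the same v2 barcodes as the controls, and with that mouse as the one IRI library, whose spread is assumed to be that of the controls, Tgfb2 changed by 5.99 (adjusted p = 2.19e-05), Tgfb1 by 3.00 (adjusted p = 0.0271) and Tgfbr2 by 1.46 (adjusted p = 0.00897), while Tgfbr1 (0.61, adjusted p = 0.384) lost its call and Smad3 stood at -0.38 (adjusted p = 0.521). Without day 28 mouse 2 or 3 the Tgfbr1 call was also lost (0.73, adjusted p = 0.105, and 0.81, adjusted p = 0.0761), while Smad3 passed without day 28 mouse 1 (0.94, adjusted p = 0.00202) and in nuclei of at least 1000 UMIs (0.77, adjusted p = 0.0412). Tgfbr1 also lost its call with the barcode set as a term (0.59, adjusted p = 0.315).

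At day 7 against control, 4 of 5 tested members rose and none fell, where 26.3% of tested genes rose and 24.7% fell. Tgfb1 rose by 4.55 (SE 0.41, adjusted p = 5.21e-06), Tgfb2 by 4.53 (SE 0.38, adjusted p = 3.15e-06), Tgfbr2 by 2.46 (SE 0.21, adjusted p = 3.24e-06) and Smad3 by 1.23 (SE 0.32, adjusted p = 0.00648). Tgfbr1 changed by 0.28 (SE 0.32, adjusted p = 0.477). Both day 7 libraries had v3 barcodes and all controls v2, which leaves no comparison inside a single set. A fit that included the barcode set drew on day 28 mouse 1 to separate it from injury. In that fit Tgfb1 (3.85, adjusted p = 0.00164), Tgfb2 (3.99, adjusted p = 0.000207) and Tgfbr2 (2.11, adjusted p = 0.0015) passed, and Smad3 stood at -0.09 (adjusted p = 0.917). Both times were set against the same 4 controls.

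Day 28 was also set against day 7. Tgfb2 rose by 1.86 (SE 0.32, adjusted p = 0.00596), 1 of 5 tested members, where 4.35% of tested genes rose and 1.36% fell. Tgfb1 stood at -0.96 (SE 0.36, adjusted p = 0.147), Tgfbr2 at -0.77 (SE 0.22, adjusted p = 0.0654), Smad3 at -0.61 (SE 0.34, adjusted p = 0.327) and Tgfbr1 at 0.54 (SE 0.34, adjusted p = 0.392). Within v3 barcodes, 2 mice against 2, Tgfb2 changed by 2.06 (adjusted p = 0.00119), Tgfbr1 by 0.69 (adjusted p = 0.0461), Tgfbr2 by -0.61 (adjusted p = 0.0284) and Tgfb1 by -0.75 (adjusted p = 0.0959). With 1 day 7 mouse left out, and the lone one assumed to vary like the other groups, Tgfb2 stood at 2.02 (adjusted p = 0.0514) without mouse 1 and 1.70 (adjusted p = 0.141) without mouse 2.

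**Figure D2:**
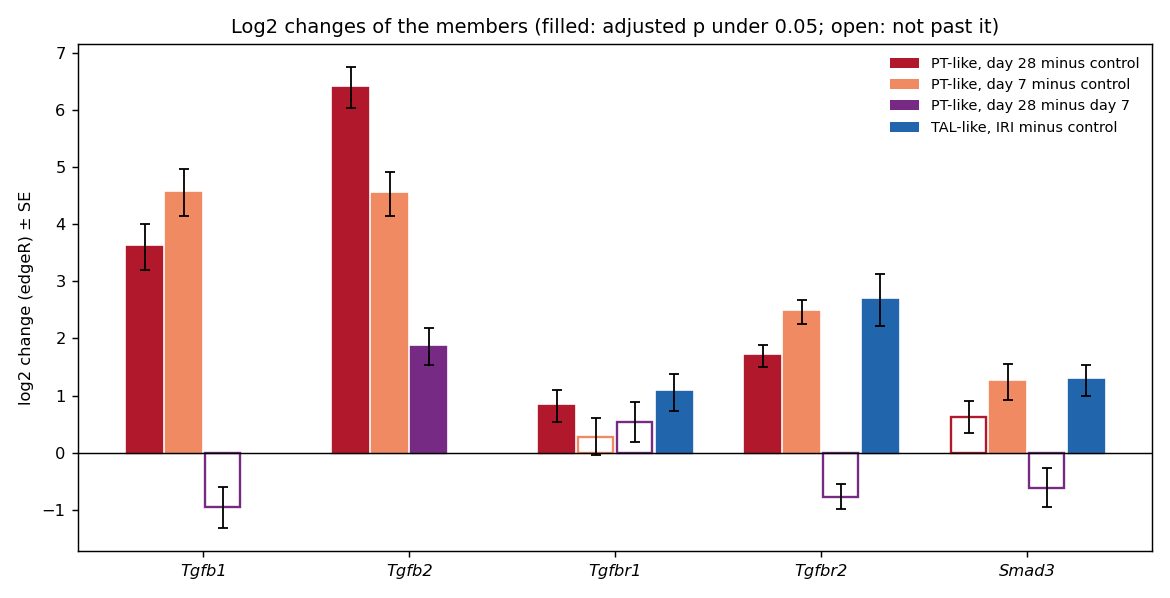
Log2 changes (edgeR) of the 5 tested members, with bars for day 28 minus control, day 7 minus control and day 28 minus day 7 in PT-like sums and for IRI minus control in TAL-like sums, and error lines of 1 SE; filled bars passed an adjusted p of 0.05 and open bars did not. Tgfb2 is the one gene with a filled bar between the days, at 1.86.

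Mean shares of nuclei with a UMI of Tgfb1, Tgfb2, Tgfbr1 or Tgfbr2 followed the order of mean CPM after thinning nuclei to 1000 UMIs. A Tgfb2 UMI was found in 6.45% ± 1.08 (SD, n = 3) of PT-like nuclei at day 28, in 2.01% ± 0.349 (n = 2) at day 7 and in 0.0370% ± 0.0248 (n = 4) in controls. Without thinning the shares were 13.7% at day 28, 4.98% at day 7 and 0.14% in controls. Tgfbr2 was found in 14.6% ± 1.57 at day 28, 23.3% ± 1.74 at day 7 and 4.33% ± 0.819 in controls, or 33.6% at day 28, 45.3% at day 7 and 6.76% in controls without thinning. For Tgfb1 the thinned shares were 1.38% ± 0.624 at day 28, 2.59% ± 0.114 at day 7 and 0.179% ± 0.115 in controls. For Tgfbr1 they were 10.5% ± 1.31 at day 28, 7.73% ± 1.11 at day 7 and 5.84% ± 0.356 in controls. Day 7 mouse 2, within the control range in CPM, had a thinned Tgfbr1 share of 6.95%, against 6.09% in the highest control. Thinning left out 1774 of the 2080 PT-like nuclei of control 4.

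RNA shed by other cells adds UMIs to every nucleus, so Tgfb2 was also read in endothelium-like, leukocyte-like and stroma-like nuclei. How much shed RNA the endothelium-like and leukocyte-like nuclei held was not measured, so their values are given without a test. At day 28 no Tgfb2 UMI was found in 135 endothelium-like nuclei (median 1027 UMIs) or in 95 leukocyte-like nuclei (median 786 UMIs), which allows shares up to 2.22% in endothelium-like and 3.16% in leukocyte-like nuclei. The share in PT-like nuclei was 6.45% when thinned to 1000 UMIs, and 13.4% pooled at their median of 2790 UMIs. The zero counts allow levels up to 20.7 CPM in endothelium-like and 25.6 CPM in leukocyte-like nuclei, beside 83.6 CPM in pooled PT-like nuclei. At day 7 there were 3 UMIs in 92 endothelium-like nuclei and 2 in 131 leukocyte-like nuclei, beside 22.7 CPM in PT-like nuclei, too few to separate the classes. Stroma-like nuclei held 17 Tgfb2 UMIs in 238 nuclei at day 28 (4.62% of nuclei, 37.3 CPM). At day 7 they held 16 UMIs in 157 nuclei (8.28% of nuclei, 38.2 CPM). The part of shed RNA in the PT-like level was not tested.

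Markers of other cell types were read in the same PT-like sums. The 11 stroma markers summed to 13.6 to 23.4 CPM at day 28, 16.5 to 17.2 at day 7 and 10.3 to 20.5 in controls, and of 4 tested none rose or fell at day 28, and at day 7 Col1a2 rose and Myh11 fell. The renin gene Ren1 was at 0 at day 28. Endothelium markers, 8 of 9 in both tables, summed to 64.1 to 101 CPM at day 28, 76.0 to 82.97 at day 7 and 38.5 to 152 in controls; of 6 tested, Ptprb and Meis2 rose and Pecam1 and Flt1 fell at day 28, Ptprb rose and Pecam1 fell at day 7, and Cdh5 was at 0 at day 28. Leukocyte markers, 9 of 11 in both tables, summed to 45.2 to 89.8 CPM at day 28, 45.7 to 54.8 at day 7 and 14.5 to 53.2 in controls, and of 6 tested Skap1 rose at both times. The 8 podocyte markers summed to 1867 to 2191 CPM at day 28, 1803 to 1970 at day 7 and 262 to 963 in controls, and of 6 tested Wt1, Synpo and Magi2 rose at both times and Clic5 fell at day 7. Magi2 made up 91.4% of that sum at day 28, 93.9% at day 7 and 87.4% in controls. Markers of the distal convoluted and connecting tubule summed to 170 to 289 CPM at day 28, 212 to 220 at day 7 and 35.5 to 66.5 in controls. After TMM scaling Trpm6 averaged 160 CPM at day 28, 150 at day 7 and 2.66 in controls. Slc8a1 averaged 35.5 CPM at day 28, 38.6 at day 7 and 11.9 in controls. Slc12a3, Calb1, Tmem52b and Pvalb of the same list had lower means at both times than in controls. The part of RNA from these cells in the levels of the 6 genes was not tested.

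Within PT-like nuclei the clusters differed in level, as a description of sums over libraries. At day 28 Tgfb2 ranged from 0 to 195 CPM over 12 clusters of at least 50 nuclei, with a median of 50.1. The highest was the cluster led by Gm609 and Tshr, with 575 nuclei, where Tgfb2 was itself among the 10 leading genes although it had not been used in clustering. The 0 was in 119 day 28 nuclei of the cluster led by Slc7a13 and Slco1a1, 117 of them from day 28 mouse 1, and allows up to 15.8 CPM (3 counts of 190235 UMIs). That cluster's PT score was 0.828 and its injured PT score 0.054, on scales of 0 to 1 from the lowest to the highest cluster. At day 7 Tgfb2 ranged from 5.24 to 70.4 CPM over 10 clusters. In controls it ranged from 0 to 2.13 CPM over 9 clusters.

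Tgfb1 ranged from 0 to 24.8 CPM over clusters at day 28, from 4.16 to 46.4 at day 7 and from 0 to 3.19 in controls. Its highest day 7 value rests on 32 UMIs in the 704 nuclei led by Peak1 and Cdh13, which held 690193 UMIs in all. The cluster led by Lockd and Diaph3 had 41.2 CPM on 50 UMIs, and that led by Cdh13 and Havcr1 37.5 CPM on 262 UMIs. Tgfbr2 ranged from 57.8 to 236 CPM at day 28, from 131 to 368 at day 7 and from 26.4 to 140.3 in controls. The highest control cluster for Tgfbr2, led by AC117197.3 and Slc5a12, had 140.3 CPM on 132 UMIs; its Tgfb1 and Tgfb2 values rest on 3 and 2 UMIs. Its injured PT score was 0.380, the highest of the 9 control clusters. Smad3 reached 518 CPM at day 28 and 1236 CPM at day 7 in the cluster led by Gm26870 and 2810407A14Rik, against 199.8 CPM at most in a control cluster.

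Injury genes were used to ask which injured PT-like nuclei carried the members. Nuclei of IRI mice with at least 1000 UMIs were sorted by a UMI of Havcr1, the KIM-1 gene that injured tubule switches on, and of Vcam1, an adhesion gene of tubule that has failed to recover. Nuclei with either gene were set against nuclei with neither in the same 5 mice. Tgfb1, Tgfbr2 and Smad3, 3 of 5 tested members, were higher in positive nuclei, where 13.1% of 12797 tested genes were higher.

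Tgfbr2 had 199, 183 and 217 CPM in positive nuclei of day 28 mice 1 to 3, against 104, 132 and 144 CPM in nuclei with neither. In the day 7 mice it had 315 and 291 CPM in positive nuclei, against 202 and 194 CPM in nuclei with neither. The difference was 0.63 on the log2 scale (SE 0.08, adjusted p = 1.09e-05), higher in 5 of 5 mice. Smad3 differed by 0.49 (SE 0.08, adjusted p = 0.000167) and Tgfb1 by 0.74 (SE 0.16, adjusted p = 0.00272), each higher in 5 of 5 mice. Tgfb2 differed by 0.26 (SE 0.12, adjusted p = 0.114) and was lower in positive nuclei of day 28 mouse 3, at 99.7 against 109 CPM. Without that mouse it differed by 0.40 (adjusted p = 0.025). Tgfbr1 differed by -0.05 (SE 0.09). Positive nuclei were deeper in each mouse, with medians of 1383 to 4637 UMIs, against 1375.5 to 4125.5 in nuclei with neither.

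Vcam1-only nuclei were then set against Havcr1-only nuclei. No member differed past an adjusted p of 0.05, where 3.22% of 10965 tested genes did. Tgfb2 had 81.9, 94.4 and 126 CPM in Vcam1-only nuclei of day 28 mice 1 to 3, against 91.7, 71.6 and 60.2 CPM in Havcr1-only nuclei, and 16.9 and 18.3 CPM in Vcam1-only nuclei of the day 7 mice, against 23.9 and 21.6 CPM in Havcr1-only nuclei. It was higher in 2 of 5 mice, with a log2 difference of 0.38 (SE 0.16, adjusted p = 0.301). Tgfbr2 differed by -0.26 (SE 0.10, adjusted p = 0.203), and the unadjusted edgeR p was 0.0264 for Tgfb2 and 0.0132 for Tgfbr2. DESeq2 called none of the members it gave an adjusted p. These values do not show that the states are alike.

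**Figure D3:**
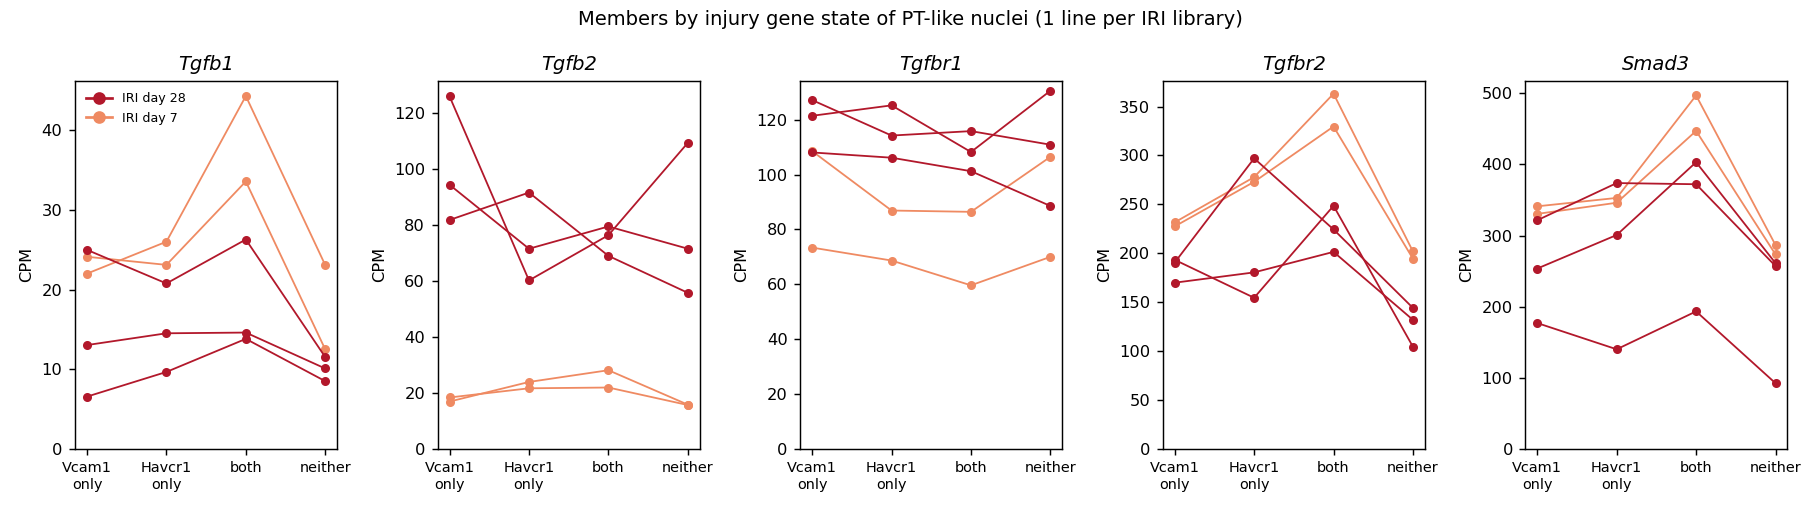
CPM of the 5 tested members in PT-like nuclei of each IRI mouse, for nuclei with a UMI of Vcam1 only, Havcr1 only, both or neither; each line is 1 mouse. Tgfbr2 is lowest in nuclei with neither gene in each mouse, and Tgfb2 lines of day 28 lie above those of day 7 in every state.

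TAL-like nuclei, from the limb that reabsorbs salt, also had more receptor and Smad3 RNA after injury. In IRI against control sums 3 of 3 tested members rose, where 11.4% of 7487 tested genes rose. Tgfbr2 had 41.9, 116 and 97.5 CPM in the day 28 mice, 199 and 192 CPM in the day 7 mice, and 14.9, 0, 18.4 and 67.5 CPM in the controls. The lowest IRI mouse lay below control 4, whose value rests on 4 UMIs. Tgfbr2 rose by 2.67 (SE 0.46, adjusted p = 8.14e-05), Smad3 by 1.27 (SE 0.28, adjusted p = 0.00108) and Tgfbr1 by 1.06 (SE 0.32, adjusted p = 0.018). The day 7 nuclei of this class lay mostly in a cluster led by Slc12a1 and Mecom that carried injury markers (329 of 390), and the control nuclei mostly in a cluster led by Slc12a1 and Egf (521 of 561). At Leiden resolution 1, where a cluster of this kind stayed unnamed, Tgfbr2 averaged 40.3 CPM in IRI TAL-like nuclei, against 25.2 CPM in controls; at the resolution used, the means were 129 CPM in IRI and 25.2 CPM in controls. The Tgfbr1 call was lost without day 28 mouse 2, day 7 mouse 1 or control 1, 2 or 4 (adjusted p = 0.0515 to 0.117). In these TAL-like sums the injured PT markers reached 2428 to 3003 CPM at day 28, 4838 to 4874 at day 7 and 995 to 1841 in controls, and the PT markers 818 to 2000 at day 28, 2497 to 3618 at day 7 and 1366 to 2527 in controls. The TAL markers stood at 14614 to 23419 CPM at day 28, 6074 to 8242 at day 7 and 16228 to 26451 in controls. The part of such RNA in the rise of the 3 genes was not tested. With the barcode set as a term none of the 3 passed (Tgfbr2 1.45, Smad3 0.45 and Tgfbr1 0.64, adjusted p = 0.595 to 0.844).

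The difference of the IRI effect between PT-like and TAL-like nuclei was tested in 1 fit, where 16.8% of 12461 tested genes differed and the median gene stood at -0.16. Tgfb2 alone passed, at 3.61 (SE 1.04, adjusted p = 0.00538). In TAL-like nuclei Tgfb2 had 13.98, 20.4 and 91.5 CPM at day 28, 13.9 and 13.5 CPM at day 7 and 12.4, 0, 0 and 0 CPM in the controls. Its control value there is 5 UMIs of control 1, and without that mouse the difference stood at -3.44 (adjusted p = 0.88). Tgfbr2 stood at -0.87 (SE 0.47), Tgfbr1 at -0.73 (SE 0.31), Smad3 at -0.46 (SE 0.27) and Tgfb1 at 1.02 (SE 1.81), none past the threshold. Without day 28 mouse 1 Tgfbr1 passed, at -0.80 (adjusted p = 0.0449).

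Across all classes each gene had its own order of levels, given here for IRI mice as means over libraries with at least 20 nuclei of the class, for classes with at least 4 such libraries. Tgfb1 was highest in endothelium-like nuclei at 157 ± 116 CPM (SD, n = 5) and leukocyte-like nuclei at 121 ± 43.2 (n = 4), which did not differ beyond their spread, followed by stroma-like nuclei at 56.7 ± 29.3 (n = 5). PT-like nuclei had 20.3 ± 8.85, TAL-like 15.8 ± 12.1, thin limb-like 15.4 ± 11.2, distal-like 11.1 ± 8.01 and intercalated-like 10.9 ± 7.58 CPM, all within their spread of each other. The endothelium-like value rests on 27 UMIs.

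Tgfb2 had an order that differed between the days. At day 28 PT-like nuclei had 81.8 ± 18.9 CPM (SD, n = 3), TAL-like 41.9 ± 43.0 (n = 3), stroma-like 33.3 ± 22.9 (n = 3), intercalated-like 17.6 ± 24.9 (n = 2), thin limb-like 13.5 ± 1.58 (n = 2) and distal-like 9.54 ± 3.31 (n = 3), with none in endothelium-like or leukocyte-like nuclei. At day 7 thin limb-like nuclei had 98.3 ± 1.73 CPM from 16 UMIs, intercalated-like 56.9 ± 39.1 from 13, stroma-like 38.2 ± 0.343 from 16 and PT-like 22.3 ± 2.31 from 436 (n = 2 each). TAL-like nuclei had 13.7 ± 0.275, distal-like 13.1 ± 8.39, endothelium-like 19.7 ± 27.9 and leukocyte-like 7.28 ± 1.06 CPM at day 7. PT-like nuclei thus had the highest mean at day 28, and lay below thin limb-like, intercalated-like and stroma-like nuclei at day 7. Control stroma-like nuclei had 19.5 ± 17.4 CPM (n = 3) from 4 UMIs, above the 0.691 ± 0.522 CPM of control PT-like nuclei.

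Tgfb3 had its highest mean in stroma-like nuclei, 8.15 ± 4.70 CPM from 8 UMIs, against 1.01 ± 0.873 CPM in PT-like nuclei. Tgfbr1 was highest in leukocyte-like nuclei at 795 ± 266 CPM, then in distal-like nuclei at 247 ± 46.5, and lowest in endothelium-like nuclei at 68.9 ± 50.3, with PT-like nuclei at 100.2 ± 23.1. In distal-like nuclei its level was close to the 217 ± 51.3 CPM of controls. Tgfbr2 was highest in endothelium-like nuclei at 453 ± 79.7 and leukocyte-like nuclei at 421 ± 68.2, which overlapped, then in PT-like nuclei at 216 ± 66.5 CPM. Smad3 was more even, from 193 ± 95.0 CPM in distal-like to 344 ± 139 CPM in stroma-like nuclei, with PT-like nuclei at 301 ± 102. Distal-like control nuclei had the lowest Smad3, 34.6 ± 27.8 CPM.

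**Figure D4:**
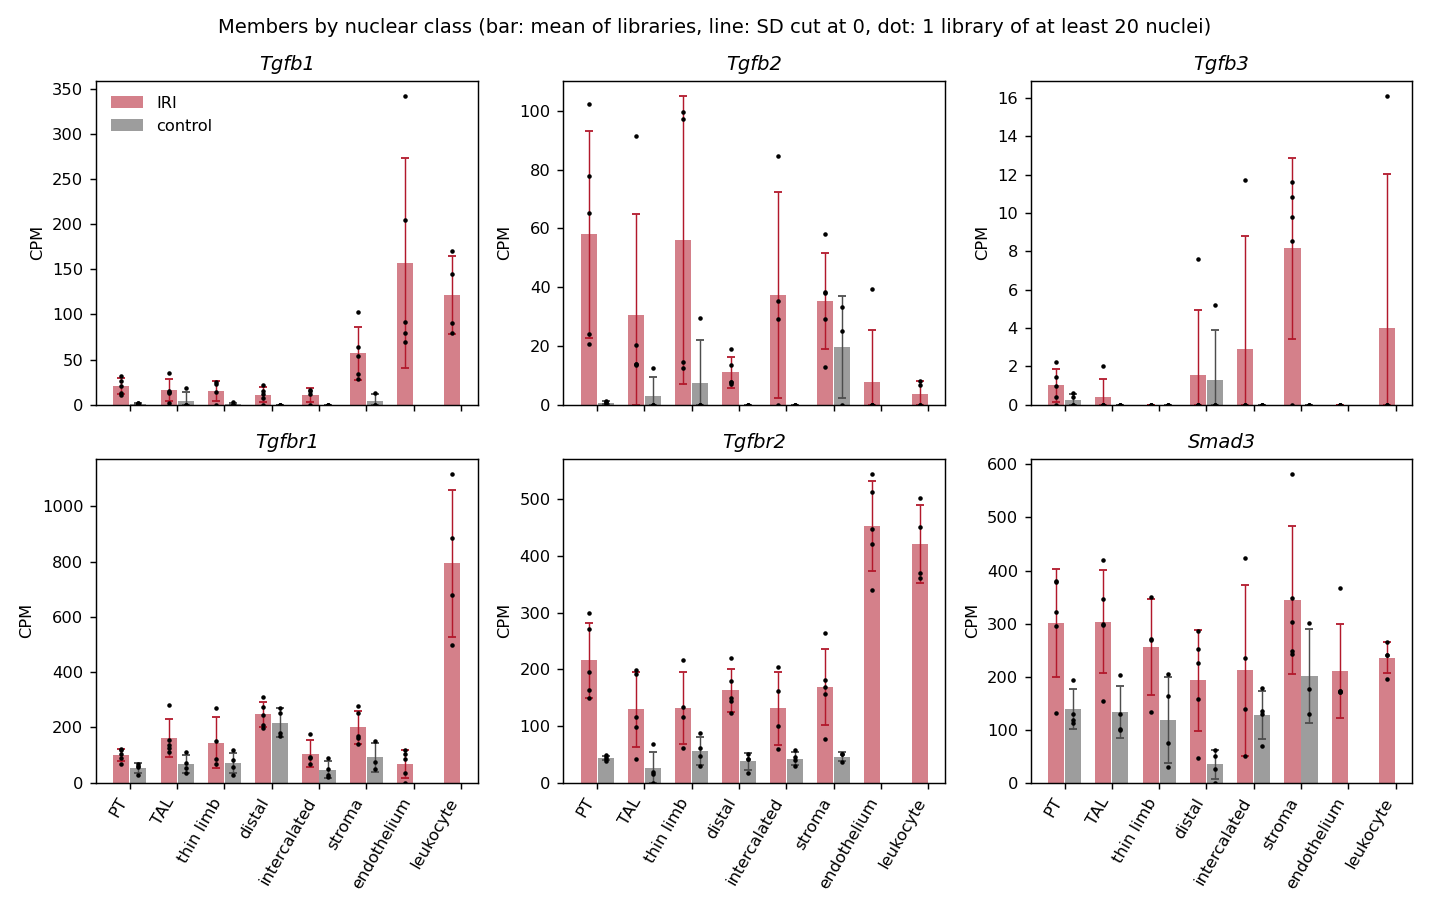
CPM of each member by nuclear class, IRI left and control right in each pair; bars are means of libraries with at least 20 nuclei of the class, lines are SDs cut at 0 and dots are libraries. Tgfb1 and Tgfbr2 peak in endothelium-like and leukocyte-like nuclei and Tgfbr1 in leukocyte-like nuclei, while the Tgfb2 bars of several classes overlap in their SDs.

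Genes most like each member were ranked by Pearson's r of log2(CPM + 1) over 36 sums of a class in a library, among 10035 genes. These sums share libraries and include each IRI and control mouse, so r is a description. Tgfb2 was most like Kcnh8 (0.871), a potassium channel gene, Sorcs1 (0.863), a sorting receptor gene, and Zfp536 (0.86). Tgfb1 was most like Gm4070 (0.904), Irak3 (0.902) and Tlr4 (0.898); Tlr4 encodes a receptor of innate immunity. Tgfbr2 was most like 2610037D02Rik (0.908), Mkl2 (0.901) and Pak2 (0.899), Smad3 most like Zhx2 (0.841), Nhsl1 (0.82) and Itga1 (0.808), and Tgfbr1 most like Lyst (0.83), Pkig (0.803) and Evl (0.782). Tgfb3 was under the level minimum of 10 CPM.

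The other genes of the pathway were read from 8 lists with 120 genes, of which 92 were tested in PT-like sums. The lists were drawn up with earlier results of these data known, so the counts below are a description. Against control, 44 rose and 8 fell at day 28, where 24.1% of all tested genes rose and 21.1% fell, and the median log2 change was 0.67, against 0.04 over all tested genes. At day 7, 50 rose and 6 fell, where 26.3% of all tested genes rose and 24.7% fell, and the median was 0.87, against 0.01 over all tested genes. Values below are CPM after TMM scaling as mean ± SD over mice (n = 3 at day 28, 2 at day 7 and 4 controls).

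Of the 16 tested genes in the list for latency and activation of the ligand, 11 rose and 1 fell at day 28 and 10 rose and 1 fell at day 7. Membership in the list does not show that a product binds or releases the ligand. Ltbp2, of the family of latent TGF-beta binding proteins, had 42.8 ± 17.9 CPM at day 28, 9.41 ± 2.33 at day 7 and 0.222 ± 0.256 in controls, a log2 change of 7.12 (SE 0.53, adjusted p = 1.36e-06) at day 28 and 4.92 (SE 0.59, adjusted p = 4.63e-05) at day 7. The controls held 5 UMIs of Ltbp2 in all, with 2 of 4 libraries at 0. Ltbp1, which binds the latent complex to matrix, rose by 5.23 (SE 0.41) at day 28, and the protease gene Mmp14, which also had 5 UMIs in controls with 2 libraries at 0, by 5.35 (SE 0.53). At day 7 Plat, the tissue plasminogen activator gene, rose by 5.11 (SE 0.56), to 96.4 ± 30.3 CPM, against 2.67 ± 1.62 in controls. The integrin gene Itgb3 had 170 UMIs at day 7 and 3 in controls, a ratio of CPM of 57.2 (95% counting interval 19.2 to 280.2).

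Among coreceptors and other receptors, 3 of 10 tested rose at day 28 and 4 at day 7, and none fell; the day 28 count is near the 24.1% of all genes. Tgfbr3, which encodes betaglycan, a coreceptor that presents ligand, had 114 ± 29.9 CPM at day 28, 93.8 ± 3.29 at day 7 and 12.2 ± 2.53 in controls, a log2 change of 3.23 (SE 0.24) at day 28 and 2.94 (SE 0.26) at day 7. The BMP receptor gene Bmpr1b rose by 4.73 (SE 0.56) at day 28 and 3.53 (SE 0.60) at day 7, and Bmpr2 by 0.65 (SE 0.18) at day 28 and 1.13 (SE 0.19) at day 7. Of other Smads and their partners 5 of 11 rose at day 28 and 9 at day 7, and none fell. Smad1, a transducer of BMP signals, rose by 1.41 (SE 0.22) at day 28 and 1.92 (SE 0.24) at day 7, and the corepressor gene Tgif1 by 1.37 (SE 0.28) at day 28 and 1.53 (SE 0.30) at day 7. Zfyve9, which encodes an anchor that presents Smads to the receptor, rose by 1.39 (SE 0.17) at day 28, and Smad9 by 2.71 (SE 0.70) at day 7.

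Inhibitors and feedback genes rose for 7 and fell for 1 of 11 at day 28, and rose for 6 at day 7. Pmepa1, an inhibitor of Smad activation, had 44.7 ± 13.3 CPM at day 28, 59.96 ± 6.36 at day 7 and 2.63 ± 1.09 in controls, a log2 change of 4.18 (SE 0.32, adjusted p = 1.63e-06) at day 28 and 4.59 (SE 0.34, adjusted p = 1.17e-06) at day 7. Smurf1, a ubiquitin ligase gene, rose by 2.07 (SE 0.27) at day 28 and 2.37 (SE 0.29) at day 7, and the inhibitory Smad6 by 1.82 (SE 0.46) at day 28 and 2.41 (SE 0.49) at day 7.

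Of 17 tested genes known as TGF-beta targets, 13 rose and 1 fell at each time. Ctgf, a matrix-associated growth factor gene, rose by 4.32 (SE 0.70) at day 28. At day 7 fibronectin (Fn1) rose by 4.42 (SE 0.33) and tenascin C (Tnc) by 4.37 (SE 0.66). Col1a2, which is also among the stroma markers, rose at day 7 (2.16, SE 0.65) and stood at 0.02 (SE 0.74) at day 28.

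The list of other ligands of the superfamily also holds Bmp1, which encodes a procollagen protease and not a ligand. Of the 6 tested genes of this list, Bmp1 included, 2 rose and 1 fell at day 28, and 3 rose and 1 fell at day 7. Over all genes 24.1% rose and 21.1% fell at day 28, and 26.3% rose and 24.7% fell at day 7. Bmp1 rose by 3.62 (SE 0.38) at day 28 and 4.48 (SE 0.39) at day 7. Bmp7, a ligand of the nephron, was lower at 9.32 ± 2.92 CPM at day 28 and 7.08 ± 0.608 at day 7, against 23.9 ± 3.58 in controls (log2 change -1.30, SE 0.27, at day 28 and -1.75, SE 0.31, at day 7). Bmp6 rose by 0.77 (SE 0.24) at day 28 and Gdf11 by 2.95 (SE 0.84) at day 7. Extracellular antagonists and binders fell for 2 of 7 at day 28, Chrd by 1.06 (SE 0.33) and Bgn, and none rose. At day 7, 1 rose and 2 fell. The shares that fell are near the 21.1% at day 28 and 24.7% at day 7 of all genes. Bgn, which encodes the matrix proteoglycan biglycan, had 3 UMIs at day 28 and 30 in controls, a ratio of CPM of 0.115 (95% counting interval 0.022 to 0.368). At day 7 Fst rose by 2.57 (SE 0.77), and Chrd fell by 1.10 (SE 0.36) and Htra1 by 0.69 (SE 0.27). Genes of the branches outside the Smads rose for 3 and fell for 2 of 14 at day 28, and rose for 4 and fell for 1 at day 7; the shares that rose are near the 24.1% at day 28 and 26.3% at day 7 of all genes. Rock2, a kinase gene of the cytoskeleton, rose by 0.83 (SE 0.23) at day 28 and 1.24 (SE 0.26) at day 7, and the adaptor gene Traf4 fell by 1.41 (SE 0.31) at day 28 and 1.83 (SE 0.36) at day 7. Mapk14 fell by 1.01 (SE 0.22) at day 28, and Tab1 rose by 1.00 (SE 0.25) at day 7.

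Between the days 3 of the 92 genes rose and 1 fell, where 4.35% of all tested genes rose and 1.36% fell, so the share of these genes is near the background. Among them Ltbp2 rose by 2.20 (SE 0.43, adjusted p = 0.0111) and the AP-1 gene Junb by 2.34 (SE 0.58, adjusted p = 0.0352), and Bgn fell (adjusted p = 0.0396), with 3 UMIs at day 28 and 54 at day 7, a ratio of CPM of 0.063 (95% counting interval 0.013 to 0.194). Junb is named here after its values were seen.

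**Figure D5:**
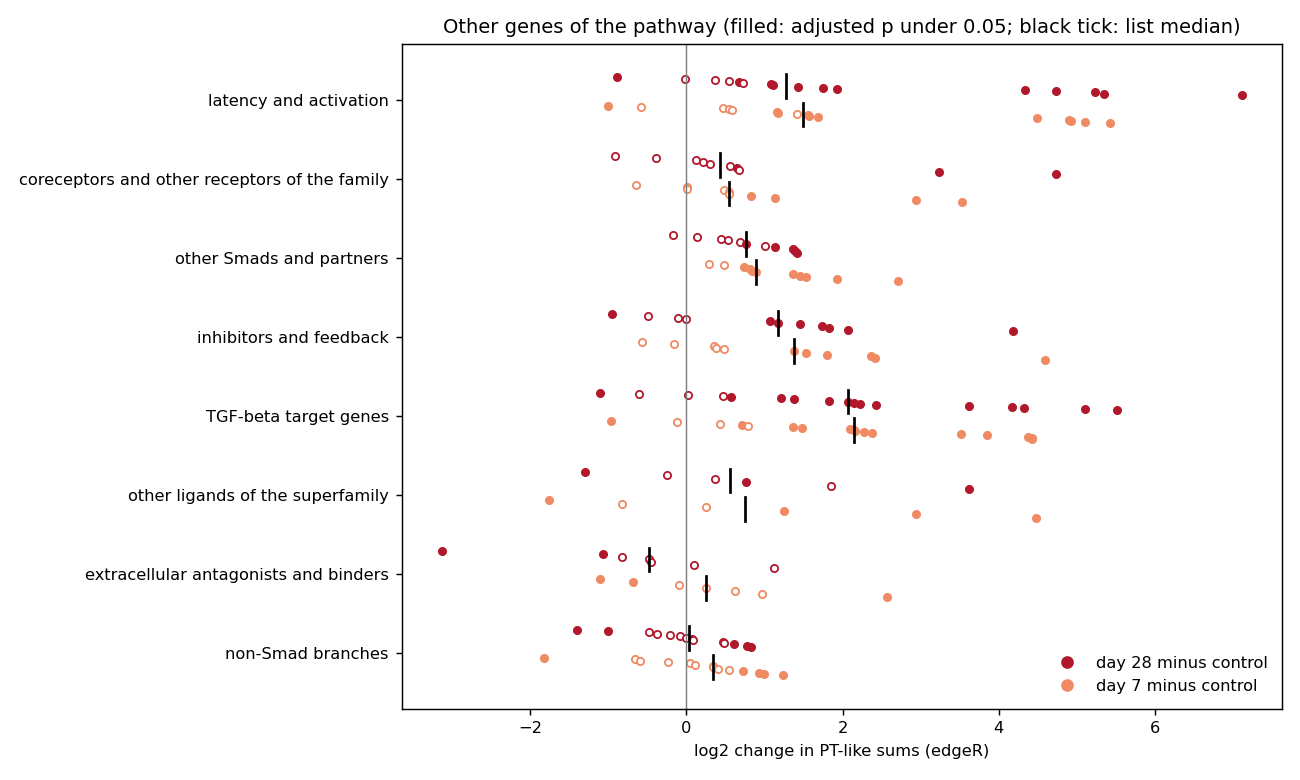
Log2 changes (edgeR) of the 92 tested pathway genes by list in PT-like sums, day 28 minus control above day 7 minus control in each pair; filled dots passed an adjusted p of 0.05, open dots did not, and black ticks are list medians. Targets have medians of 2.07 at day 28 and 2.14 at day 7, and the antagonists -0.48 at day 28 and 0.25 at day 7.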

How the data were processed

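Both tables deposited by the authors hold UMI counts, genes by nuclei, without normalization, and every value was a whole number. Per the submitters' processing notes, Cell Ranger, STAR and Seurat were used with mm10; their versions and roles are not known from these notes. Nuclei were grouped with scanpy 1.11.5 (2000 variable genes without the 6 members, 30 principal components, 20 neighbours, Leiden resolution 2 with igraph 0.11.9) and named from marker lists; the scoring rule (minimum 0.4, injured PT 0.6, margin 0.15, 3 markers) was chosen after seeing the scores. Clusters with mixed markers, 1065 nuclei, stayed unnamed. Doublets were gated out in the sort per the labels' protocol, and no caller was run.

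UMI counts were summed per library and class and tested in edgeR 4.0.16 (R 4.3.3; TMM scaling, filterByExpr, quasi-likelihood F test, 1 fit over the 9 libraries, Benjamini-Hochberg adjustment over all tested genes, threshold 0.05). The state fits had a term for each mouse. TMM factors ran from 0.794 to 1.02 in controls and from 1.04 to 1.13 in IRI libraries; levels of members in CPM are without them. DESeq2 1.42.0, no filter, the barcode set, left-out libraries and other choices were tried as alternatives. The fits were tested on simulated counts. Counting intervals and floors (3 counts) cover counting error only. The members, gene lists and markers were chosen with earlier results of these data known. Named genes were all members and, from each list, the 3 called genes with the largest change at each time; some target genes that the rule names are not reported here. All genes of only 1 table were left out of tests. The symbols of 19573 of 19858 genes matched GENCODE M21.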

Additional observations from a re-analysis of the deposited data

Results flagged for a closer look

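Tgfb2 differed between the days after injury: its change against control was larger at day 28 than at day 7 by 1.86 on the log2 scale in PT-like sums (edgeR, adjusted p = 0.00596), with all 3 day 28 mice above both day 7 mice. It was 2.02 (adjusted p = 0.0514) without day 7 mouse 1 and 1.70 (adjusted p = 0.141) without day 7 mouse 2, with the lone day 7 library assumed to vary like the other groups. Tgfb2 also had an IRI effect that differed between PT-like and TAL-like nuclei, by 3.61 (edgeR, adjusted p = 0.00538), on 5 control TAL-like UMIs that all came from control 1. Without control 1 it was -3.44 (adjusted p = 0.88). Tgfbr1 in PT-like sums of the 4 controls had 1 library apart: control 4, at 28.5 CPM after TMM scaling, against 66.4 to 72.7 CPM in the others, stood apart by 0.858 of the controls' range. Control 4 was the shallowest library, with a median of 667 UMIs per PT-like nucleus. In its 306 nuclei that could be thinned to 1000 UMIs, a Tgfbr1 UMI was found in 5.88%, against 5.33% to 6.09% in the other controls. The part of depth in the low CPM was not tested. Among groups of 4, chance alone sets a sample this far apart in about 1 in 20. Such gaps were looked for in 5 members in PT-like and 3 in TAL-like sums, so finding 1 of them by chance is more likely than that.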

How the results depend on the processing

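In PT-like sums the calls of Tgfb1, Tgfb2 and Tgfbr2 against control held under every alternative run. Their log2 changes ran from 3.00 to 3.79, 5.68 to 6.61 and 1.45 to 1.79 at day 28, and from 3.85 to 4.83, 3.99 to 4.69 and 2.11 to 2.599 at day 7. With the barcode set as a term, the changes turned to -0.379 for Smad3 at day 28, -0.0858 for Smad3 at day 7 and -0.0384 for Tgfbr1 at day 7, and in the PT minus TAL difference to -0.378 for Tgfb1 and 0.136 for Tgfbr2. With v2 barcodes only, Smad3 at day 28 was -0.376. With states called on thinned counts, Vcam1-only against Havcr1-only turned to 0.159 for Tgfb1, -0.119 for Tgfbr1 and 0.0291 for Tgfbr2. Of these, Smad3 at day 7 had passed the threshold in the reported fit.

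With 1 mouse left out, Tgfbr1 at day 7 ranged from -0.0029 to 0.546 (below 0 without day 7 mouse 1 or control 4). In the PT minus TAL difference Tgfb1 ranged from -4.49 (without control 3) to 2.27 and Tgfb2 from -3.44 (without control 1) to 4.12. In Vcam1-only against Havcr1-only nuclei Tgfb1 ranged from -0.134 to 0.0311 (without day 28 mouse 2), and in positive against neither Tgfbr1 from -0.109 to 0.02 (without day 7 mouse 1). Members called between the days numbered 0 to 1 with a mouse left out (0 without either day 7 mouse), 2 with DESeq2 and 3 with v3 barcodes only, a setting chosen after seeing the data. The TAL-like calls numbered 0 with the barcode term, and the PT minus TAL calls 0 (without control 1) to 2 (without day 28 mouse 1).

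Over all genes, 618 rose and 193 fell between the days in the reported fit, against 1048 and 371 with DESeq2, 1271 and 705 with v3 barcodes only, 356 and 67 with the replicate block, 284 and 49 without day 7 mouse 1 and 141 and 25 without day 7 mouse 2. At day 28 against control 3431 rose and 3001 fell, against 1712 and 1334 with the barcode term and 1150 and 815 with v2 barcodes only. At day 7 against control 3737 rose and 3516 fell, against 1111 and 814 with the barcode term, 2439 and 2114 without day 7 mouse 1 and 2604 and 2003 without day 7 mouse 2. In TAL-like sums 850 rose and 865 fell, against 60 and 26 with the barcode term and 395 and 545 without control 1. The PT minus TAL difference was above 0 for 779 called genes and below for 1319, against 831 and 553 with DESeq2, 207 and 150 with the barcode term and 754 and 818 without day 7 mouse 2. Vcam1-only nuclei were higher for 181 genes and lower for 172 against Havcr1-only nuclei, against 64 and 67 with DESeq2 and 87 and 78 without day 28 mouse 2.

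At Leiden resolution 1 IRI TAL-like nuclei averaged 1.68 CPM of Tgfb1 and 40.3 CPM of Tgfbr2, as the cluster with injury markers stayed unnamed. Without thinning, Tgfb2 was found in 13.7% of PT-like nuclei at day 28, 4.98% at day 7 and 0.14% in controls, and Tgfbr2 in 33.6% at day 28, 45.3% at day 7 and 6.76% in controls.

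With a replicate block by mouse number, Tgfbr1 lost its call at day 28 (0.62, adjusted p = 0.075) and in TAL-like sums (0.88, adjusted p = 0.0885). The other calls of members against control, between the days and in TAL-like sums stayed as in the reported fit. Deviations of same-numbered mice correlated at -0.224 to 0.019, so the numbers were not taken as pairs. Where no cause is given above, the cause was not tested. Depth limits the low members most: the controls held 15 UMIs of Tgfb2 and 18 of Tgfb1 in PT-like sums.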
